A study of Homo sapiens with 24 samples.

Results

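A set of 10 genes that cut, transport and load peptides for MHC class I molecules were followed across every array of the series: B2M, TAP1, TAP2, TAPBP, PSMB8, PSMB9, PSMB10, ERAP1, ERAP2 and NLRC5. They were chosen by name, as 10 of the 19775 genes that the arrays measured, and all 10 were measured. Where a gene had several probe sets, which are groups of short probes against one transcript, the brightest on average over the 24 arrays was used. The 10 genes had 25 probe sets in all, and 5 of them had more than 1.

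The study used RT112, a human bladder cancer cell line that is known to carry a fusion of FGFR3 to TACC3. It asked which genes depend on FGFR3, a receptor tyrosine kinase, by lowering it with short hairpin RNAs that are made only when doxycycline is added. A total of 4 lines were compared: 1 carrying an inducible hairpin against EGFP, which human cells do not have, and 3 carrying the FGFR3 hairpins 2-4, 4-1 and 6-16. Each line was kept in medium with 1% FBS for 48 h, either with 1 µg/ml doxycycline or without it, and 3 arrays were run per condition, which gave 8 groups and 24 arrays. Every group therefore carried a hairpin vector and low serum, and the labels do not say whether a line is 1 clone or a pool. Nothing in the labels says that the 3 arrays of a group came from separate cultures, so p-values here measure the spread between arrays, which may be technical.

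Cells continually show fragments of their own proteins on MHC class I molecules, which cytotoxic T cells inspect. The proteasome cuts proteins into peptides, and PSMB8, PSMB9 and PSMB10 are the catalytic subunits that replace the constitutive ones in the immunoproteasome, a form induced by interferon gamma. TAP1 and TAP2 form the pump that carries peptides into the endoplasmic reticulum, where the aminopeptidases ERAP1 and ERAP2 trim them and tapasin, the product of TAPBP, holds an empty class I molecule next to the pump. B2M is the light chain of every classical class I molecule, and NLRC5 is a transactivator that raises transcription of class I genes and of several genes of this pathway. Low levels of these genes are a known route by which tumours, bladder tumours among them, become less visible to T cells.

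Of the 10 genes, 5 lie on chromosome 6 in or next to the MHC region (TAP1, TAP2, PSMB8, PSMB9 and TAPBP). ERAP1 and ERAP2 lie on chromosome 5, B2M on chromosome 15, and PSMB10 and NLRC5 on chromosome 16. The 250 bases before the annotated starts were taken from RefSeq (build GRCh38.p14) for 9 members, 13 windows in all. The windows of 4 members are shown because the results below turn on these genes. TAP1 and PSMB9 start close together and run in opposite directions. Their levels were closely alike over the arrays, as were those of some members on different chromosomes. TAPBP and B2M were the members whose levels differed most regularly between arrays of low and high TACC3. All 4 are written 5′ to 3′ in the direction of the gene, and capitals mark matches on either strand to the interferon-stimulated response element pattern, GAAA, any 2 bases and GAAA again.
TAP1, chr6:32853705-32853954, minus strand: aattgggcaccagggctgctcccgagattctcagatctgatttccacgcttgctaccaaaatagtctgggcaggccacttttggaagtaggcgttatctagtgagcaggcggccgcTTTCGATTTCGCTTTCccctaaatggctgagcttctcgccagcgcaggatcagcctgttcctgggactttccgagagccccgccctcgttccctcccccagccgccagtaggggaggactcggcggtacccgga
PSMB9, chr6:32853942-32854191, plus strand: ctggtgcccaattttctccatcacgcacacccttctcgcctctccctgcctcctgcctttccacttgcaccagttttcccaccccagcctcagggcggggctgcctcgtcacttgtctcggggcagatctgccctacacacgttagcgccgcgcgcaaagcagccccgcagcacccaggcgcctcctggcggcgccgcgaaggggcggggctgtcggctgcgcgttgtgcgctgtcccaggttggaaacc
TAPBP, chr6:33314079-33314328, minus strand: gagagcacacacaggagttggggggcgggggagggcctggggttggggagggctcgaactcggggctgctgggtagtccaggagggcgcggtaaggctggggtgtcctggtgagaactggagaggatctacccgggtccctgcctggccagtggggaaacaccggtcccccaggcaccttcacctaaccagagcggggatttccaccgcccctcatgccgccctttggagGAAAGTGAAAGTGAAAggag
B2M, chr15:44711267-44711516, plus strand: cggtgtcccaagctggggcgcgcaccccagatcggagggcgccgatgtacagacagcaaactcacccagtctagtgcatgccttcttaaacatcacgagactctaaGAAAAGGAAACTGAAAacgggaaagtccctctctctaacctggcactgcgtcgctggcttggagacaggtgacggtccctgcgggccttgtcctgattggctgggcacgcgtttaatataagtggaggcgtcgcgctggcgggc

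That pattern, searched on both strands, was in windows of 6 of the 9 members (ERAP2, TAP2, TAP1, TAPBP, B2M and PSMB10). It was in 3.71% of the 27305 genes with windows of the same length. TAP1, TAPBP and B2M each held 2 overlapping matches. In TAPBP both matches lay within the last 20 bases before the start, in B2M they began 144 bases before it, and in TAP1 they began 134 bases before it and read on the opposite strand. The gamma-activated site TTCNNNGAA was in a window of 2 members, PSMB8 and the second start of TAP1, against 8.09% of all genes. The GC box GGGCGG was in windows of 4 of 9 members against 46.2% of genes, the CCAAT box in 4 of 9 against 37.0%, and the cyclic AMP response element core TGACGTCA in 0 of 9 against 2.03%. The window of PSMB9 held 2 GC boxes and 1 CCAAT box. These matches describe the letters of the windows, and binding at them was not measured.

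Values throughout are log2 levels from the authors' RMA processing, so a difference of 1 is a 2-fold difference. The median of all probe sets lay between 6.98 and 7.08 on the 24 arrays, and no pair of arrays held identical values. Most of the 10 epithelial and urothelial markers were bright: KRT18 averaged 13.83, EPCAM 12.90 and GATA3, a urothelial transcription factor, 13.37. The urothelial markers UPK2 and UPK3A were dimmer, at 9.05 and 7.23, and UPK3A alone of the 10 lay under the median gene. The 10 leukocyte markers averaged from 5.33 to 8.46. Of these, 7 lay under the median gene, PTPRC at 5.74 and CD14 at 5.48 among them, and CD79A at 8.46, LAPTM5 at 8.41 and CD3E at 8.39 lay over it. The fibroblast list was also mixed, with LUM at 13.18 and the other 7 markers between 4.95 and 9.22. On the probe set used, the target did not follow its labels. FGFR3 stood 0.15 (SE 0.31) higher with doxycycline in the 2-4 line, with a log2 change of -0.24 for 4-1 and 0.42 for 6-16. The EGFP line gave 0.16 (SE 0.31), and limma's adjusted p was 0.760 or higher for all 4. These values came from the brighter FGFR3 probe set, 204379_s_at, and the dimmer one, 204380_s_at, is not given by label. TACC3, the fusion partner, changed by 0.19 in the EGFP line, 0.28 for 2-4, 0.32 for 4-1 and -0.71 for 6-16. Its adjusted p from limma was 0.735 or higher in each. How much of the TACC3 signal came from the fusion transcript was not measured. The groups below are therefore given as the labels name them, with no direction drawn from depletion of FGFR3. Arrays most like each other also came mostly from different labelled groups, as described below. Whether every array carries its own label was not tested, and each mean, SD, change and p by label holds only if it does.

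By label, the 10 genes showed no change that passed the test. PSMB9, the immunoproteasome subunit encoded beside TAP1, varied most. In arrays labelled EGFP without doxycycline it stood at 10.16, 9.20 and 10.36, and with doxycycline at 10.35, 10.13 and 10.14. The 2-4 line gave PSMB9 values of 10.15, 9.67 and 10.29 without doxycycline and 10.34, 10.52 and 10.20 with it. PSMB9 in the 4-1 line read 9.72, 10.16 and 10.20 without doxycycline and 10.64, 9.37 and 10.18 with it. In the 6-16 line it read 10.39, 9.17 and 10.25 without doxycycline and 10.30, 9.77 and 10.03 with it. In each line the range with doxycycline overlapped the range without it, and in 6 of the 8 groups the lowest array stood at 9.77 or under.

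Tapasin, which bridges the class I heavy chain to the peptide pump, was steadier. TAPBP averaged 11.61 ± 0.13 (SD, n = 3) in the EGFP line without doxycycline and 11.52 ± 0.21 with it. In the 2-4 line TAPBP averaged 11.44 ± 0.24 without and 11.63 ± 0.12 with doxycycline, in the 4-1 line 11.67 ± 0.17 and 11.47 ± 0.29, and in the 6-16 line 11.40 ± 0.075 and 11.47 ± 0.12 (SD, n = 3 each). The signs of these 4 differences were mixed, and with and without doxycycline the values overlapped in every line.

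**Figure D1:**
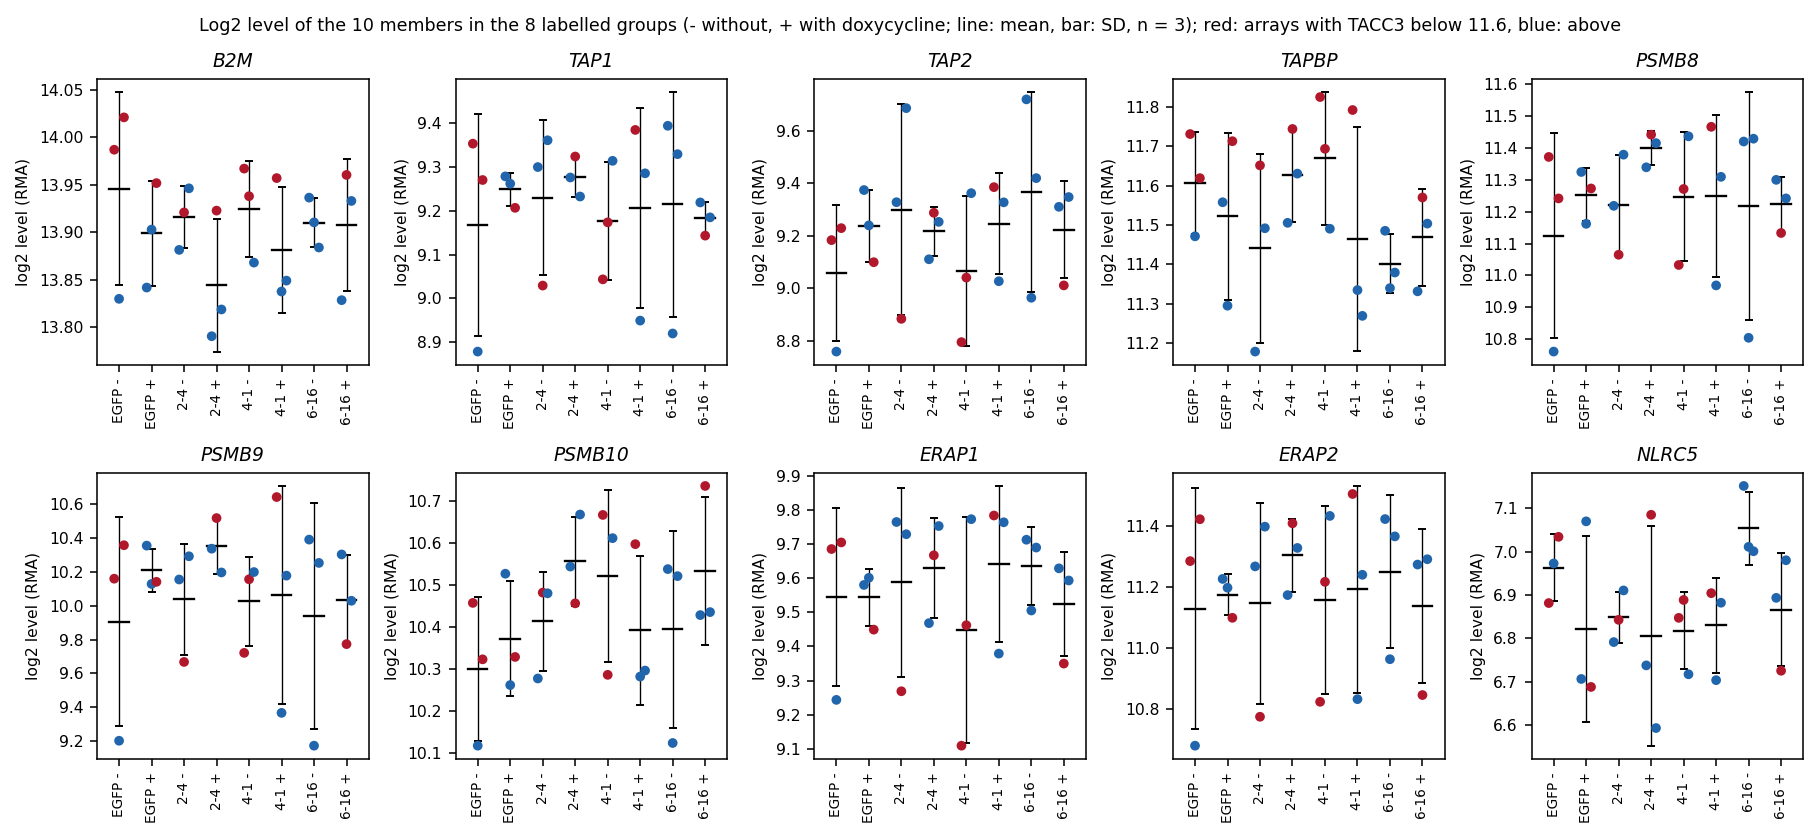
Log2 level of each of the 10 genes (vertical axis, RMA) in the 8 labelled groups (horizontal axis, minus or plus for doxycycline), with 1 point per array, the group mean as a line and the SD as a bar (n = 3), and arrays with TACC3 below 11.6 in red and above it in blue. PSMB9 spans 9.17 to 10.64 with low arrays scattered over most groups, whereas B2M stays between 13.79 and 14.02.

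The changes with doxycycline were tested with limma on all 19775 genes, with Benjamini-Hochberg adjustment. None of the 10 members passed at an adjusted p of 0.05 in any line, and neither did any other gene: 0% of genes were called in each of the 4 lines. At an unadjusted p under 0.05, where 0 of 10 members passed in every line, the share of all genes was 2.55% for EGFP, 2.46% for 2-4, 1.13% for 4-1 and 7.78% for 6-16. With arrays weighted by their quality the 6-16 count became 1291 genes, none of them a member, and the lowest adjusted p of a member was 0.224, for NLRC5. Among the loading genes, the log2 change of B2M was -0.047 (SE 0.062) in the EGFP line, -0.072 for 2-4, -0.043 for 4-1 and -0.0030 for 6-16. TAPBP changed by -0.085 (SE 0.14), 0.19, -0.20 and 0.067 in the same order, none of which passed. PSMB9 gave 0.30 (SE 0.33), 0.31, 0.037 and 0.096. For ERAP2, the aminopeptidase lost in homozygous carriers of a common splice haplotype, the 4 values were 0.045 (SE 0.21), 0.16, 0.035 and -0.11. NLRC5, the transactivator of several genes of the pathway, gave -0.14 (SE 0.11), -0.043, 0.012 and -0.19.

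The design asks for changes in the FGFR3 lines that the EGFP line lacks, so the mean doxycycline change of the 3 FGFR3 lines was set against that of the EGFP line. Again 0 of 10 members passed, as did 0% of all genes, and at an unadjusted p under 0.05 the counts were 0 of 10 members and 2.16% of genes. In the loading group the difference was 0.0077 (SE 0.071) for B2M, -0.066 (SE 0.15) for TAP1, -0.20 (SE 0.23) for TAP2 and 0.10 (SE 0.16) for TAPBP. The immunoproteasome subunits gave -0.066 (SE 0.19) for PSMB8, -0.15 (SE 0.38) for PSMB9 and -0.022 (SE 0.15) for PSMB10. The aminopeptidases gave 0.042 (SE 0.19) for ERAP1 and -0.020 (SE 0.24) for ERAP2, and NLRC5 gave 0.068 (SE 0.13). The median over the members was -0.021, beside -0.017 over all genes. The 95% interval was narrow for B2M, -0.14 to 0.16, and wide for PSMB9, -0.95 to 0.64, so a change of PSMB9 by as much as 1.5-fold in either direction lay within it. Without replicate 2 of the EGFP line without doxycycline, 5 of these small differences changed sign: TAP1 became 0.077, PSMB8 0.12, PSMB9 0.20, PSMB10 0.068 and ERAP2 0.21.

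**Figure D2:**
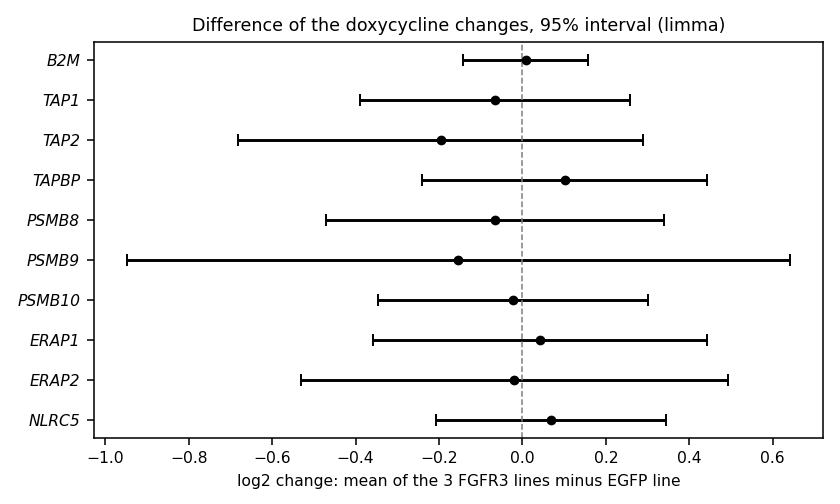
Mean log2 change with doxycycline in the 3 FGFR3 lines minus the change in the EGFP line (horizontal axis), with limma's 95% interval as bars, for the 10 genes (vertical axis). Every interval includes 0, and the interval of PSMB9 is the widest, from -0.95 to 0.64.

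The remaining comparisons by label gave the same count. The 3 FGFR3 lines did not differ among themselves in any member (F test of the 3 changes, adjusted p 1.00 for each of the 10; 0% of genes called, 3.22% at an unadjusted p under 0.05). Without doxycycline, the mean of the FGFR3 lines minus the EGFP line ran from -0.10 for TAPBP to 0.19 for TAP2, with a median of 0.048 over the members and -0.0036 over all genes. None of the 10 members passed there, at 0% of genes called, and 2.91% of genes, none of them a member, had an unadjusted p under 0.05. Across the 60 tests by line, by line type and without doxycycline the members' log2 changes ran from -0.20 to 0.31, all under 1.5-fold, with adjusted p from 0.724 to 1.00. The rule of the study, a change in all 3 FGFR3 lines and none in the EGFP line, was met by no member and by 0% of genes.

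Of the wider antigen-processing list, 46 genes were measured beside the members, and 0 of 46 passed limma's adjusted test in the 4 line changes, the difference between line types or the comparison without doxycycline, with 0 or 1 of them at an unadjusted p under 0.05 in each. Their median difference between FGFR3 lines and the EGFP line was -0.0081. JAK2, a kinase of the interferon gamma receptor, gave the largest size at 0.29 (SE 0.25), followed by PSMB6, a constitutive catalytic subunit, at -0.25 (SE 0.25) and THOP1, a cytosolic peptide-destroying enzyme, at -0.24 (SE 0.28). PSMB5 and PSMB7, the other constitutive catalytic subunits, gave -0.17 (SE 0.18) and -0.066 (SE 0.12). HLA-B and HLA-C gave 0.14 (SE 0.14) and 0.11 (SE 0.11), and IRF1, an activator of TAP1 and PSMB9, gave -0.15 (SE 0.16).

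The members nevertheless varied between arrays, and the labelled groups held a small share of that variance. The range of PSMB9 over the 24 arrays, 1.47, exceeded that of 96.9% of all genes. TAP2 stood at the 90.3 percentile of ranges, ERAP2 at 85.8 and PSMB8 at 79.3, while B2M stood at 1.02 with a range of 0.23. Differences between labelled groups held a median of 15.6% of the variance of the members, against 26.4% over all genes, and 30.4% is the share that 8 random groups of 3 would hold on average.

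Arrays were then set in order of TACC3, a mitotic spindle protein whose gene lies next to FGFR3, at the level of 11.6 on its probe set 218308_at. This level is a value measured on the same arrays, its sides are not groups of the study, and the comparison is given as ranges without a test. TACC3 was below 11.6 on 9 arrays, at 10.49 to 11.43, and above it on 15, at 11.82 to 12.62. The nearest array inside was replicate 1 of the EGFP line without doxycycline, at 11.43, and the nearest outside was replicate 2 of the 6-16 line without doxycycline, at 11.82. The arrays below came from 7 of the 8 groups, 4 of them labelled with doxycycline and 5 without. The dimmer FGFR3 probe set, 204380_s_at, followed the same order, at 8.71 to 9.88 below and 10.34 to 11.20 above. The brighter one, 204379_s_at, which gave the FGFR3 values by label, overlapped, at 11.13 to 12.20 below and 11.36 to 12.34 above.

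On this scale B2M and TAPBP were the members with the most regular order. TAPBP ran from 11.57 to 11.83 with a median of 11.71 on the 9 arrays of low TACC3. On the 15 arrays of high TACC3 it ran from 11.18 to 11.63 with a median of 11.47. The medians differed 1.18-fold, all 9 low-TACC3 arrays lay over the other median, and 7 of 9 lay over the highest of the other 15. B2M had a median of 13.96 (13.92 to 14.02) at low TACC3 and 13.87 (13.79 to 13.95) at high TACC3, a 1.06-fold difference with 6 of 9 arrays over the highest of the others. A second B2M probe set, 216231_s_at, had medians of 13.94 and 13.84, and the dimmer TAPBP probe set 1555565_s_at had 8.96 and 8.81.

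Still, 0 of the 10 members separated the arrays without overlap, where 2.9% of all genes were higher on every low-TACC3 array and 3.09% were lower. The call for TAPBP hung on 1 array: without replicate 3 of the 2-4 line with doxycycline its values no longer overlapped, and the count became 1. TAP2 ran the other way, with a median of 9.10 (8.79 to 9.39) at low TACC3 and 9.33 (8.76 to 9.72) at high TACC3, and so did ERAP1, at 9.46 and 9.63. PSMB8 stood at 11.27 and 11.31, PSMB9 at 10.16 and 10.20, PSMB10 at 10.46 and 10.43, and NLRC5 at 6.88 and 6.89. For TAP1 the medians were 9.21 and 9.28, and for ERAP2 11.22 and 11.27.

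The partners of these genes stood further apart. Of the 5 class I heavy chains measured, 4 were higher on every low-TACC3 array, as were 2.9% of all genes. They were HLA-B with medians of 12.62 and 12.39, HLA-C with 13.22 and 13.01, HLA-E with 11.96 and 11.56, and HLA-G with 11.02 and 10.84. These genes are related in sequence, so their probe sets may read each other's transcripts, which was not tested. The 4 are therefore not counted as separate observations. Of the 7 constitutive proteasome subunits, all 7 had lower medians at low TACC3, as did 10602 of the 19775 genes. Among these subunits 3 did not overlap, beside 3.09% of all genes: PSMB5 at 11.49 and 11.82, PSMB2 at 11.72 and 12.11, and PSMB3 at 11.64 and 12.06. PSMB6 stood at 10.51 and 11.08 and PSMB7 at 11.85 and 12.04, both with overlap. The immunoproteasome counterparts PSMB8 and PSMB9 had median differences of -0.038 and -0.040. Over the 46 partners, 6 were higher and 6 lower without overlap, beside 2.9% and 3.09% of all genes.

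Signs of RNA quality moved with the same split. The excess of the 3′ over the 5′ control probe sets of GAPDH had a median of 0.37 (0.28 to 0.42) at low TACC3 and 0.26 (0.20 to 0.29) at high TACC3, and that of ACTB 1.01 and 0.83. The log2 of the summed level of all 8 fibroblast markers ran from 13.46 to 13.71 at low and 13.09 to 13.53 at high TACC3, with LUM the only one that averaged above 9.22. The summed level of the 10 leukocyte markers ran from 10.57 to 10.88 and 10.66 to 10.90. Their part in the differences of TAPBP, B2M and the heavy chains was not tested. In bulk RNA, fewer cells of a type and less RNA per cell cannot be told apart.

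**Figure D3:**
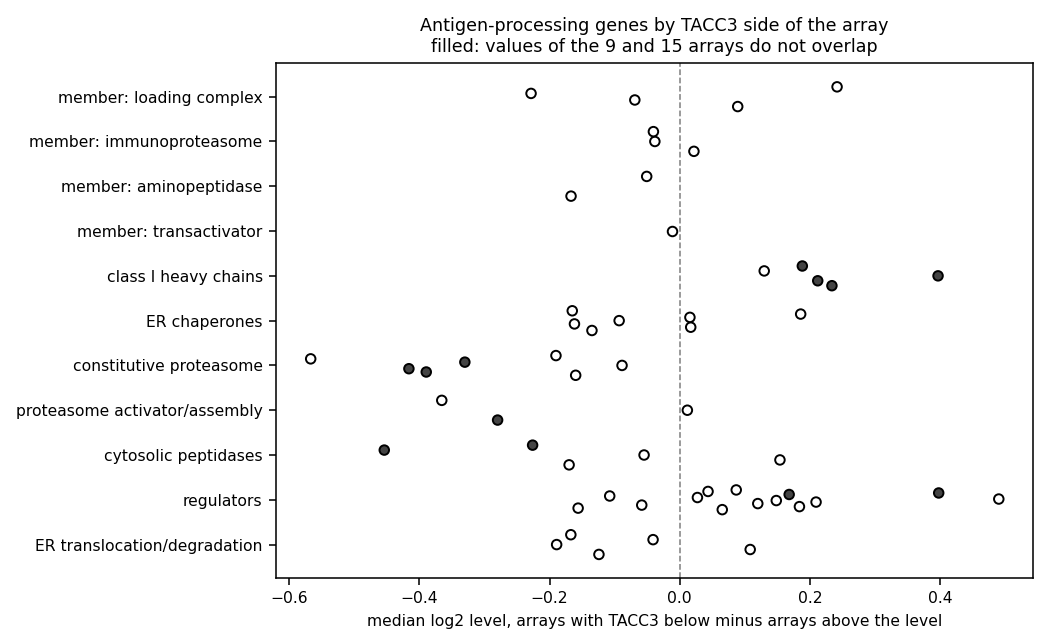
Median log2 level on the 9 arrays with TACC3 below 11.6 minus the median on the 15 arrays above it (horizontal axis), 1 point per gene, for the members and the other antigen-processing genes by role (vertical axis). Filled points, where the values of the 2 sides do not overlap, are found among heavy chains, proteasome subunits, peptidases, a proteasome assembly factor and regulators, and 0 of the 10 members is filled.

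A stronger pattern lay within each side. When each array was matched to the arrays most like it over all probe sets, 18 of the 24 arrays fell into 6 sets of 3 that were each other's nearest. None of the 6 sets held a single labelled group, 5 of them held 3 different groups, and all 6 lay on 1 side of the TACC3 level. Set 1 held replicate 2 of the 2-4 line without doxycycline, replicate 1 of the 4-1 line without it and replicate 2 of the 6-16 line with it, which were also the 3 arrays of lowest TACC3. Set 5, on the high-TACC3 side, held replicate 2 of the 4-1 line with doxycycline and replicates 2 of the 6-16 and EGFP lines without it. Every array of set 5, and each of set 1 except that of the 4-1 line, was thus numbered replicate 2. The remaining arrays with that number lay in sets 2, 3 and 4. The labels do not say what the numbers stand for, and their part was not tested. Sets 1 and 5 were singled out after the members' values were seen, and no test was made on them.

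PSMB9 read 9.17, 9.20 and 9.37 in set 5, against 10.03 to 10.39 on the other 12 arrays of high TACC3, a 2.03-fold difference between medians. In set 1 PSMB9 read 9.67, 9.72 and 9.77, against 10.14 to 10.64 on the other 6 arrays of low TACC3, a 1.45-fold difference. Neither set overlapped its comparison arrays. TAP1, the neighbour of PSMB9, read 8.88 to 8.95 in set 5 against 9.18 to 9.39, and 9.03 to 9.14 in set 1 against 9.17 to 9.38. PSMB8 read 10.76 to 10.97 in set 5 against 11.16 to 11.44, and 11.03 to 11.13 in set 1 against 11.24 to 11.47. The low arrays of these 3 genes were the same 6 arrays.

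TAP2, the other subunit of the pump, read 8.76 to 9.03 in set 5 against 9.11 to 9.72, and 8.79 to 9.01 in set 1 against 9.04 to 9.39. ERAP2 read 10.68 to 10.96 in set 5 against 11.17 to 11.43, and 10.77 to 10.84 in set 1 against 11.10 to 11.51. So 5 members, TAP1, TAP2, PSMB8, PSMB9 and ERAP2, had exactly the arrays of sets 1 and 5 as their 6 lowest. Each of these 5 was wholly lower in both sets than in the other arrays of the same side, as were 4.49% of all genes. The share of all genes with those same 6 lowest arrays was not counted. ERAP1 was wholly lower in set 1 (9.11 to 9.35 against 9.45 to 9.78) but overlapped in set 5 (9.24 to 9.51 against 9.47 to 9.77). Set 5 alone was wholly lower in 5 of 10 members and 6.5% of genes, and set 1 alone in 6 of 10 members and 11.5% of genes.

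The other members did not share it. PSMB10, the third immunoproteasome subunit, read 10.12 to 10.28 in set 5, all 3 among its 6 lowest arrays, but 10.48 to 10.73 in set 1, where the other arrays of low TACC3 stood at 10.28 to 10.60. TAPBP read 11.33 to 11.47 in set 5 and 11.57 to 11.83 in set 1, overlapping the other arrays of each side. B2M read 13.83 to 13.91 and 13.92 to 13.97. NLRC5 read 6.70 to 7.01 in set 5 and 6.72 to 6.85 in set 1, within the 6.59 to 7.15 of the other arrays. The 3′ excess of GAPDH was 0.37 to 0.42 in set 1 and 0.26 to 0.29 in set 5, beside 0.28 to 0.42 over all arrays of low TACC3 and 0.20 to 0.29 over all arrays of high TACC3. Its part in the low values of PSMB9 and the genes like it was not tested.

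**Figure D4:**
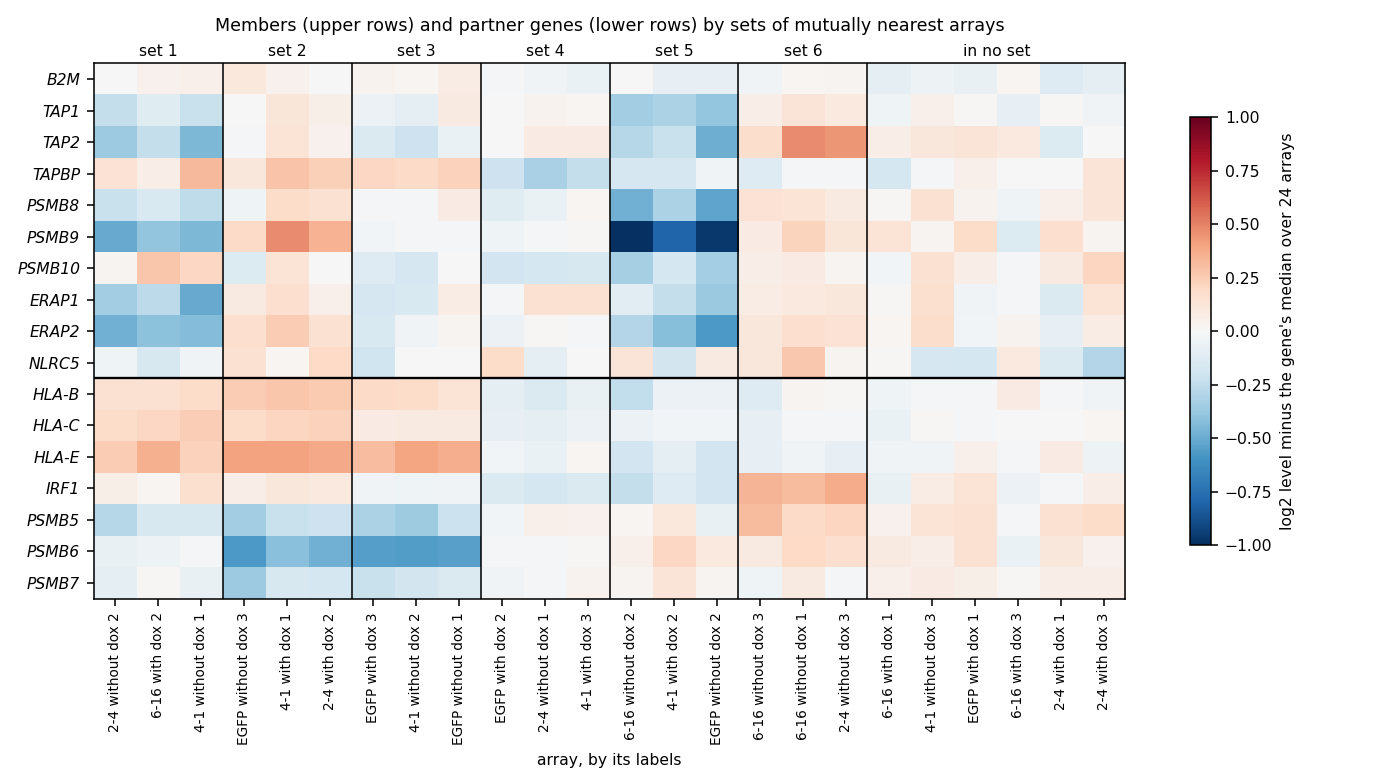
Log2 level minus each gene's median over the 24 arrays (colour), for the 10 members and 7 partner genes (vertical axis) on every array (horizontal axis), ordered by the 6 sets of mutually nearest arrays, with sets 1 to 3 at low TACC3. Sets 1 and 5 are blue in TAP1, TAP2, PSMB8, PSMB9 and ERAP2, and PSMB9 in set 5, at 9.17 to 9.37, is the deepest.

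The SD within labelled groups was larger than the SD within the 6 sets for each member, from 1.17 times for NLRC5 to 5.37 times for PSMB9. For PSMB9 the SD was 0.44 within labelled groups and 0.081 within sets. TAP1 gave 0.17 and 0.056, ERAP2 0.28 and 0.077, and PSMB8 0.22 and 0.081. The sets were made from all probe sets, the members included, by picking the arrays most alike. A smaller SD within them is therefore built in for genes at large, and the ratio was not taken over all genes. These ratios are a description.

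Among TAP1, TAP2, PSMB8, PSMB9, ERAP1 and ERAP2, grouped after their values were seen, the 15 pairwise correlations over the 9 arrays of low TACC3 had a median Pearson r of 0.93 (0.90 to 0.97). Over the 15 arrays of high TACC3 the median r was 0.88 (0.73 to 0.96). Leaving out the 2 arrays farthest from the median gave 0.92 and 0.75. Without the 3 arrays of set 5 the median r at high TACC3 was 0.51 (-0.18 to 0.74), so much of that relation rested on those arrays. At low TACC3 the correlations were not taken without set 1, which was wholly lower in each of these 6 genes. Over all 45 pairs of the 10 members the median r was 0.29 at low and 0.55 at high TACC3. TAP1 and PSMB9, which face each other across the sequences shown above, had r of 0.90 and 0.96. PSMB9 and ERAP2, on different chromosomes, had 0.97 and 0.88, so closeness on the chromosome did not set the first pair apart at low TACC3. Without set 5 the values at high TACC3 were 0.56 for TAP1 and PSMB9 and 0.15 for PSMB9 and ERAP2. TAP1 and NLRC5 had 0.46 and 0.0038. Arrays share normalization and the sets described, so these values carry no p.

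**Figure D5:**
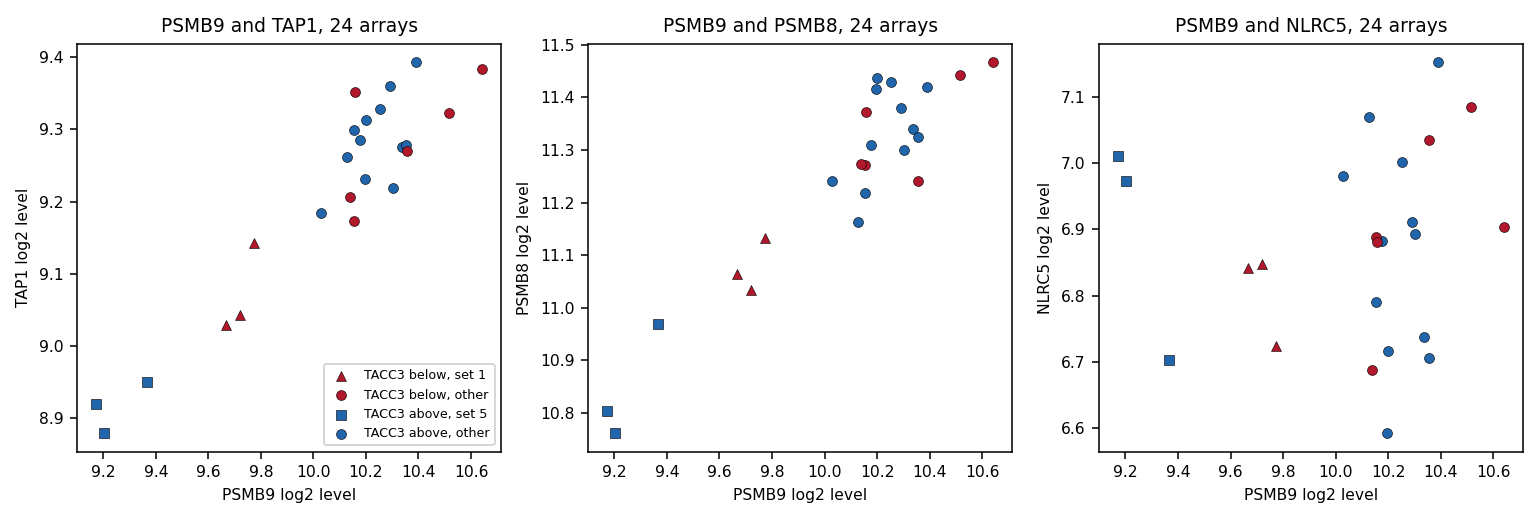
PSMB9 log2 level (horizontal axis) against TAP1, PSMB8 and NLRC5 (vertical axes), 1 point per array (n = 24), coloured by side of the TACC3 level and with sets 1 and 5 as triangles and squares. TAP1 and PSMB8 fall with PSMB9 in both sets, and NLRC5 spreads from 6.59 to 7.15 without that order.

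Over all 24 arrays, the genes most like PSMB9 among 16662 with a mean log2 level of at least 6 were ZNF703 (r = 0.96), UNC45A (r = 0.96) and DLL1 (r = 0.95), with TAP1 in place 10 and PSMB8 in place 12. For PSMB8 they were MEAK7 (r = 0.95), PSMB9 (r = 0.94) and UNC45A (r = 0.94), and TAP1 came in place 4. TAP2 was most like SCNN1A, HEY1 and AK4 (r = 0.89 for each), and ERAP2 was most like AK4 (r = 0.95), IQGAP1 (r = 0.95) and MCTP2 (r = 0.95). Of these 12 places, 11 were held by genes outside the antigen-processing lists, and UNC45A and AK4 recurred. Those lists held only the 10 members and 46 other genes of the 19775 measured. Nearly all places would fall outside them for any gene, so the count is not read further.

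Other probe sets of the same members bore on how far these values depend on the one chosen. For ERAP2, 219759_at followed the chosen probe set with r = 0.97, 1554273_a_at with 0.91 and 235104_at with 0.80 over the 24 arrays, and 1554272_at, at a mean of 3.54, with 0.31. For TAP2, 225973_at followed with r = 0.91 and a wider range of 1.40, whereas 204770_at gave 0.45 and 208428_at 0.10. ERAP1 210385_s_at gave 0.86, and the 3 dimmer ERAP1 probe sets between -0.24 and 0.22. For TAPBP, 1555565_s_at gave 0.46 and 210294_at -0.013.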

How the data were processed

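The deposited table holds log2 expression values for 54675 probe sets on 24 arrays, made by the authors with RMA in the affy package per the submitters' processing notes. RMA corrects background, equalizes the distribution of values between arrays and summarizes probes, so it hides total RNA differences. Genome build and software versions of that step are not given in the sources used here. Of the probe sets, 41097 had 1 gene symbol in the platform annotation, 1801 several and 11777 none, and only those with 1 symbol were used, 1 probe set per gene by highest mean, which gave 19775 genes. Depth does not apply, and the number of arrays limits the precision.

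Groups came from the labels. One linear model with 8 group means was fitted to all genes (limma 3.58.1 in R 4.3.3, lmFit and eBayes, 16 residual degrees of freedom), with p-values adjusted by Benjamini-Hochberg over 19775 genes and a threshold of 0.05. The fit was tested on simulated data. Of 50 genes altered 1.5, 2 and 4-fold, it found 36, 47 and 49 in the 2-4 line, where 4 other genes were called wrongly. The contrast of line types found 34, 45 and 48 of 50. In the arrays themselves, the sets of nearest arrays crossed the labels and FGFR3 did not follow them. Whether the simulated rates hold for such arrays was not tested. They therefore do not show how large a change the absence of calls excludes. Arrays on either side of the TACC3 level, and sets of mutually nearest arrays by correlation over all probe sets, were described by ranges only.

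The 10 members, the TACC3 level and the gene lists were chosen with earlier results of these data known. Named beside the members are FGFR3 and TACC3, the constitutive subunits PSMB5, PSMB6 and PSMB7, class I heavy chains, IRF1, the 3 partner genes with the largest difference between line types, and the 3 genes most like each of the 4 members of widest range. Other partners were named after their values were seen. The wider list held 50 genes, 46 of them measured, and the rest are not analysed here. Alternatives were array weights, a replicate block, each line alone, other choices of probe set, a filter on low values, other scalings, and leaving out each array.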

Additional observations from a re-analysis of the deposited data

How the results depend on the processing

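No member passed the adjusted test in any of the 1900 tests over all comparisons and settings, with a lowest adjusted p of 0.224. Counts over all genes stayed at 0 except for the 6-16 line, with 1291 calls under array weights, 1 with the replicate block and 1 with that line's arrays alone. The number of members separated by TACC3 level was 0, and 0 to 1 on leaving out single arrays. Replicate numbers were not taken as a pairing: deviations of same-numbered arrays correlated from -0.53 to 0.61, with 9 of 12 over 0.1, and 15 of 24 arrays correlated best with their own number. The block changed no other call. Changes that did not pass changed sign as follows, and the cause was not tested. For the FGFR3 lines against the EGFP line, array weights gave 0.053 for PSMB8, 0.084 for PSMB9, 0.0070 for PSMB10, 0.12 for ERAP2 and -0.024 for NLRC5. The probe set of highest SD gave -0.095 for B2M and -0.040 for ERAP1, and the mean of all probe sets -0.024 for B2M. Within lines, array weights gave -0.11 for ERAP2 in EGFP, -0.025 for PSMB9 and -0.0043 for NLRC5 in 4-1, and -0.065 for TAPBP in 6-16, and the probe set of highest SD gave 0.036 for B2M in EGFP. Leaving out 1 array, the difference between line types changed sign in 8 of 10 members: B2M ran from -0.030 to 0.066, TAP1 from -0.16 to 0.077, TAPBP from -0.012 to 0.20, PSMB8 from -0.19 to 0.12, PSMB9 from -0.38 to 0.20, PSMB10 from -0.10 to 0.068, ERAP1 from -0.038 to 0.19 and ERAP2 from -0.17 to 0.21. In the EGFP line TAPBP ran from -0.18 to 0.028, PSMB9 from -0.050 to 0.53 and ERAP2 from -0.18 to 0.19. In the 2-4 line ERAP2 ran from -0.029 to 0.28 and NLRC5 from -0.18 to 0.063. In the 4-1 line PSMB9 ran from -0.25 to 0.38, ERAP2 from -0.13 to 0.22 and NLRC5 from -0.038 to 0.076. In the 6-16 line B2M ran from -0.030 to 0.036, PSMB9 from -0.29 to 0.32 and ERAP2 from -0.26 to 0.032. For TACC3, splitting at its widest gap, 3 arrays against 21, moved the median difference of PSMB10 to 0.23, ERAP1 to -0.40 and ERAP2 to -0.45. The mean of all probe sets moved that of B2M to 0.024. Shifts smaller than a gene's SD within labelled groups, 0.44 for PSMB9, are not listed. The 3 arrays below the widest gap were those of set 1, where PSMB9 had a median of 9.72. On the 9 arrays below 11.6 its median was 10.16, so the PSMB9 median at low TACC3 depended on the cut. Leaving out sets 1 and 5, and correlations without the 3 arrays of set 5, were tried after the values were seen. NLRC5 is dim, and 3 arrays per group limit every test.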

Other observations

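Several regulators and peptidases of the pathway are named here after their values were seen. IRF1, which binds the shared TAP1 and PSMB9 promoter region, was highest in set 6 (10.12 to 10.18), which held replicate 3 of the 2-4 line and replicates 1 and 3 of the 6-16 line, all without doxycycline. TAP2 was also highest there, at 9.42 to 9.72, while PSMB9 stood at 10.25 to 10.39, overlapping the 10.36 to 10.64 of set 2. IRF1 was low in set 5 (9.57 to 9.68) and in set 4 (9.63 to 9.67) but not in set 1 (9.83 to 9.97), so it shared only part of the pattern of PSMB9 and TAP1. RFX5, a subunit of the factor that binds class I promoters with NLRC5, was higher on each of the 9 arrays of low TACC3 (9.42 to 9.96) than on the other 15 (8.99 to 9.27), and so was NFYC (9.71 to 9.94 against 9.39 to 9.65). JAK2 overlapped, at 7.68 to 8.18 and 7.35 to 7.89. Among genes that feed or drain the peptide pool, POMP, a proteasome assembly factor, read 12.25 to 12.58 at low and 12.60 to 12.82 at high TACC3. THOP1 read 7.52 to 8.01 and 8.19 to 8.48, and TPP2, a large cytosolic peptidase, 8.83 to 8.96 and 8.99 to 9.31. PSMB6 split the arrays of low TACC3 themselves, at 10.92 to 10.98 in set 1 and 10.42 to 10.58 in sets 2 and 3.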
